A study of Mus musculus with 9 samples.

Results

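Chemokines are small secreted proteins, and they were followed here in mouse inguinal white fat together with the receptors that read them. The genes were chosen by name: every row whose symbol is Ccl, Cxcl, Ccr or Cxcr with a number, plus Cx3cl1 and Cx3cr1, with 1 receptor left out. A gene was kept where its mean over the 9 libraries was at least 0.1 CPM (a gene's counts scaled to a common library total). Of 24539 genes in the table, 54 matched the names and 45 reached that level, 30 ligands and 15 receptors. Cxcl5, a ligand of 0 to 0.393 CPM, did not pass the filter on low counts, so 44 genes were tested among 16745.

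Chemokines draw leukocytes along gradients. CC ligands such as Ccl2 and Ccl7 act mainly on monocytes and eosinophils, CXC ligands that carry an ELR motif act on neutrophils, and Cxcl9, Cxcl10 and Cxcl11 are induced by interferon and act on T and NK cells through Cxcr3. A last set, including Cxcl12 and Cxcl13, is made without inflammation and places progenitors and lymphocytes in tissue. The receptors couple to inhibitory G proteins. In white fat, Ccl2 is made by adipocytes, progenitors and macrophages, and tissue macrophages are a known source of Ccl6, Ccl8 and Ccl9.

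The 9 C57BL/6 mice gave 1 library each and were fed chow. WT animals carried floxed Tet1 alleles, and KO animals carried these alleles with Cre under the Fabp4 promoter, which is active in adipocytes and also in macrophages. There were 2 WT and 2 KO libraries from mice kept at room temperature (RT), and 3 WT and 2 KO libraries from mice held at 4 °C for 4 h (cold). No age or sex is given for these mice. By the labels the tissue was inguinal fat that was flash-frozen, whereas the study's text describes the RNA as that of adipocytes separated from this fat. In the files, 7 fibroblast and progenitor markers summed to 9007 to 13603 CPM and 6 adipocyte markers to 3271 to 8703 CPM, and macrophage and endothelial markers were present in every library. In these bulk libraries fewer cells of a type and less RNA per cell cannot be told apart.

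For 2 KO mice the column name and the sample title disagree. Mouse 1781 is a cold mouse by its column and an RT mouse by its title, and mouse 1786 is the reverse. Column names were followed, and the values with both left out and with titles followed are given beside the called members and beside Ccl6, Ccl8 and Ccl9. With both left out, KO is mouse 1814 alone at RT and mouse 1782 alone in cold. Rgs2, a G protein regulator, was at 60.0 CPM in mouse 1781 and 136 CPM in mouse 1786. Libraries without conflict had 134 to 167 CPM at RT and 57.7 to 87.5 CPM in cold. In KO, Ucp1 was at 1146 CPM in mouse 1781 and 1400 CPM in mouse 1782 (raw library totals). It was at 267 CPM in mouse 1786 and 605 CPM in mouse 1814. Both genes were picked after their values were seen, and which label is right was not tested. Library totals were 47605902 to 56292251 counts, and pairs of replicates correlated at 0.987 to 0.993 (Pearson, across tested genes, on log2 CPM). The KO libraries were not lower in Tet1 counts, with 5.30 to 12.3 CPM against 3.87 to 5.33 CPM in WT. These are counts per gene that do not separate the floxed exons, and WT and KO stand for the libraries labelled so. The defining adipocyte gene Adipoq was at 593 CPM in KO cold mouse 1781 and at 1369 to 1878 CPM in the other 8 libraries. The summed level of 6 adipocyte markers was 3271 CPM in mouse 1781 against 5794 to 8703 CPM.

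Ligand transcripts far outweighed receptor transcripts. Ligands made up 94.0% of the summed mean CPM of the 45 genes, and the 6 most counted ligands made up 68.6% of the ligand sum. Per transcript length (RPKM, reads scaled to transcript length and library total, computed by the authors and read here in the 7 libraries whose column and title agree), the leading gene was the neutrophil ligand Cxcl1, at a mean of 158 RPKM and a range of 97.4 to 256 RPKM. Cxcl10 followed at 92.2 RPKM, then Ccl6 at 89.4 RPKM and Cxcl14, a constitutive ligand of epithelium and fat, at 87.9 RPKM. The eosinophil attractant Ccl11 stood at 54.1 RPKM and the neutrophil ligand Cxcl2 at 48.3 RPKM. The library ranges of neighbours in this order overlapped, so the order itself was not resolved. By CPM, which favours long transcripts, Cxcl12, the ligand of Cxcr4, was first, ahead of Cxcl14, Cxcl1, Ccl6 and Cxcl10.

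**Figure D1:**
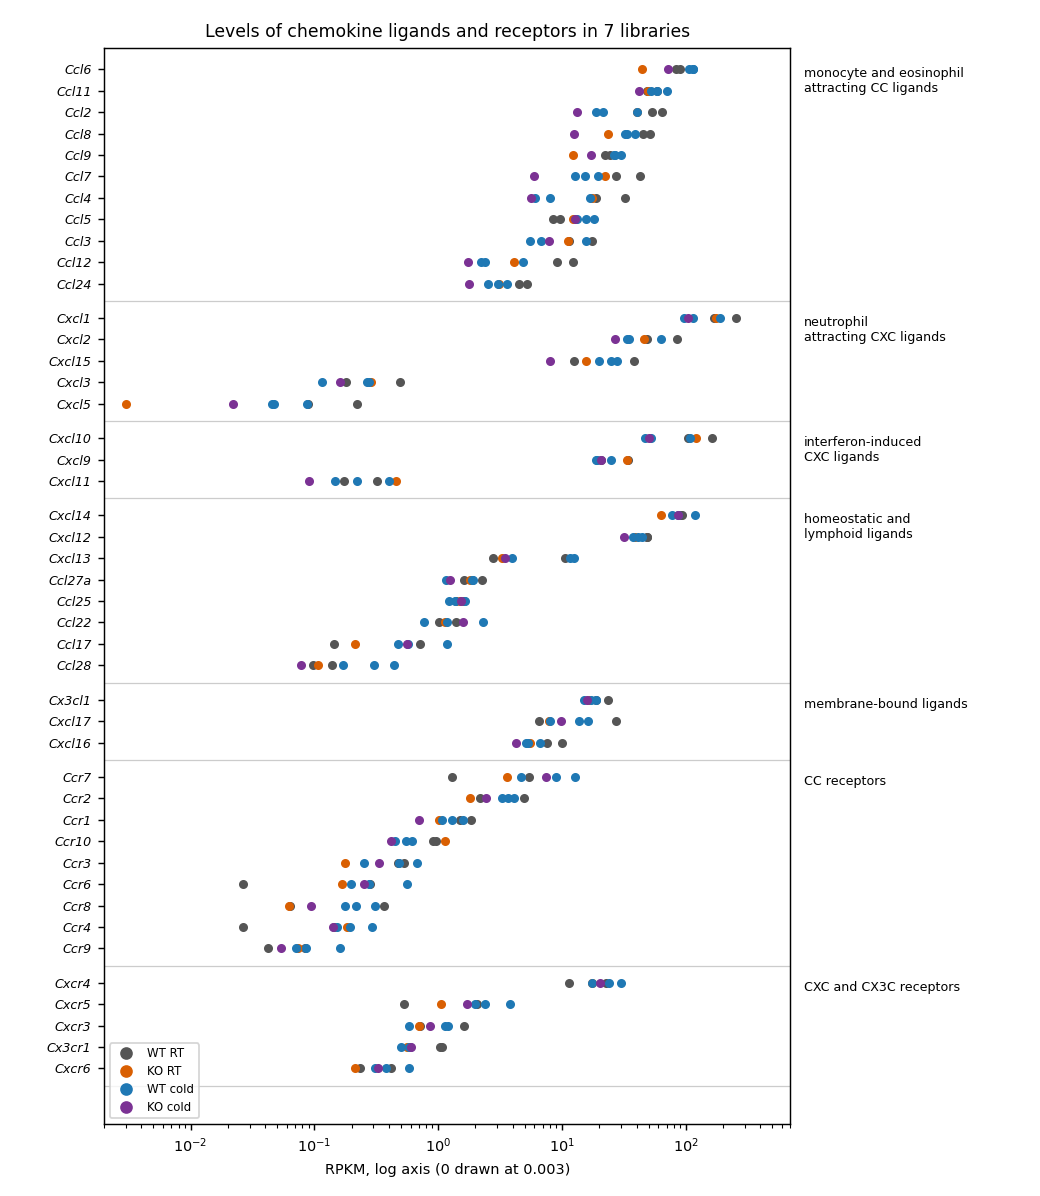
RPKM of the ligands and receptors on a log axis, 1 point for each of 7 libraries, coloured by group and sorted within role. Ligands reach a mean of 158 RPKM (Cxcl1), while among receptors only Cxcr4 has a mean over 10 RPKM, at 20.5 RPKM.

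Cxcr4 was the one receptor of 15 with a mean over 10 RPKM, at 20.5 RPKM and a range of 11.5 to 29.96 RPKM. Ccr7, a receptor of T cells and dendritic cells, was at 6.32 RPKM and Ccr2, the monocyte receptor of Ccl2, at 3.19 RPKM. In all, 19 members exceeded 10 RPKM and 14 stayed under 1 RPKM. Replicates agreed less well for these genes than for most: the median SD within groups, on log2(CPM + 0.1) with 5 residual degrees of freedom, was 0.51 over the 44 tested members and 0.22 over all genes tested. The least steady members were Cxcl17, a ligand of mucosal tissue, and Cxcl13, a B cell attractant, with SDs of 1.21 and 1.18.

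Of the 9 matching genes under 0.1 CPM, Ccl1, Ccl20, Ccl26 and Ccl27b had at most 6 counts in any library. Cxcr1, Ccl19, Ccl21a, Ccl21b and Ccl21c had none, which allows up to 0.0533 to 0.0630 CPM by library for reads that map uniquely. Reads with several map positions had been dropped by the authors. In the annotated transcripts, 100% of the 50-base stretches of Ccl21b, 71.6% of Ccl21a and 52.0% of Ccl19 also occur in another gene. Nothing can therefore be said here of these lymphoid ligands. Ccl27a shared 45.0% of its stretches with copies, and its counts are uncertain.

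Cold exposure was the comparison in which members passed the test. A gene was called where edgeR's quasi-likelihood test gave an adjusted p under 0.05 (Benjamini-Hochberg, over all 16745 genes) and a change of more than 1.5-fold. With the cold effects of WT and KO averaged, 5 of 44 members were called, against 3.15% of all genes. Ccl6 and Ccl9 were higher in cold, 2 of 44 against 1.6% of all genes. Ccl4, Cxcl10 and Ccr10 were lower, 3 of 44 against 1.55% of all genes. These calls depend on the 2 mice of conflicting labels: with both left out none of the 5 passed, and with titles followed no member passed and the estimates of Ccl6 and Ccl9 were -0.17 and -0.15. Of 29 ligands 18 had a negative estimate (median -0.22), and of 15 receptors 2 did (median 0.62), beside 49.5% of all genes (median 0.0036). A difference between ligands and receptors was not tested.

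**Figure D2:**
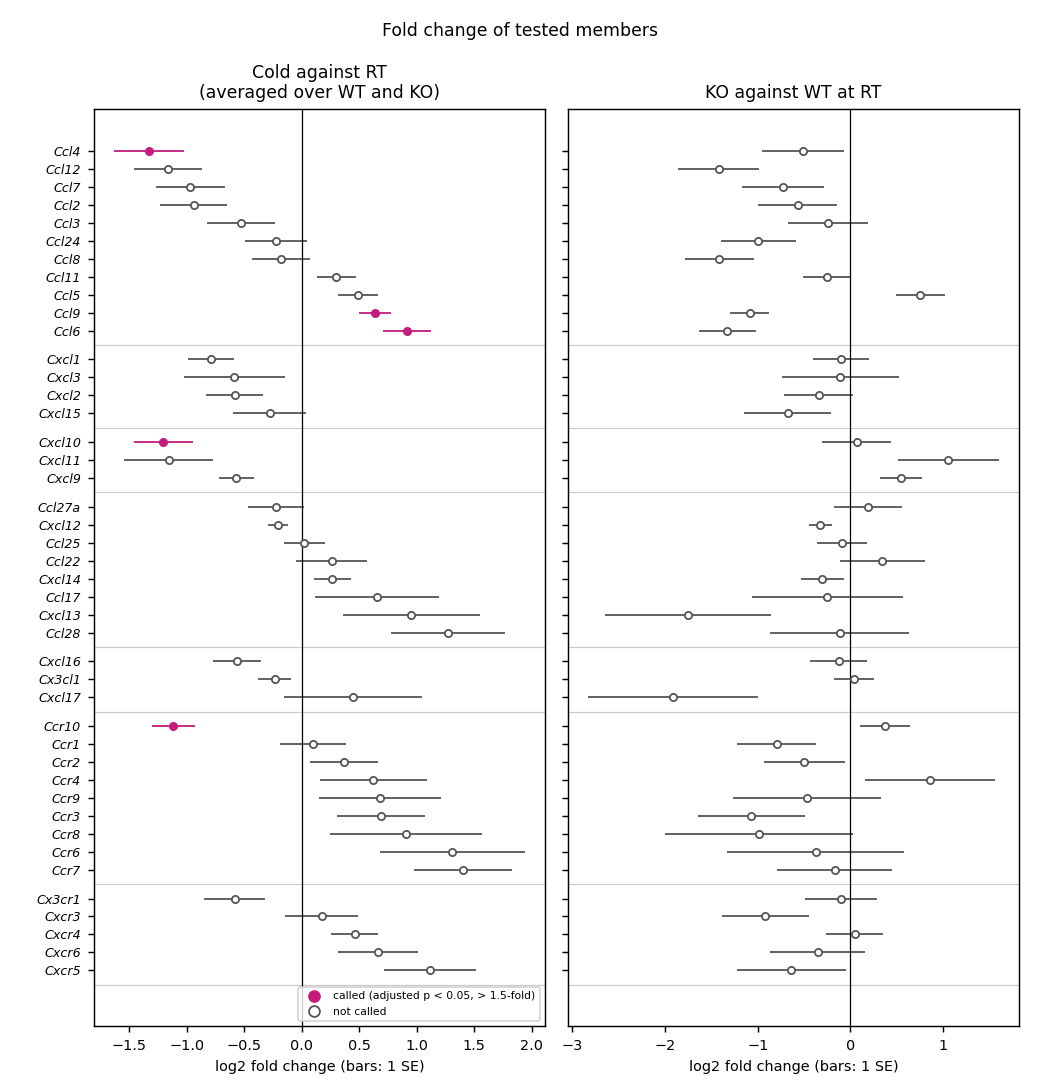
Log2 fold change of tested members with bars of 1 SE, for cold against RT averaged over genotypes (left) and KO against WT at RT (right), grouped by role and sorted by the cold estimate. Libraries are grouped by column name, and filled points passed the test: Ccl4, Cxcl10 and Ccr10 lower, and Ccl6 and Ccl9 higher, all in cold, while no member passed on the right.

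Cxcl10 was the most abundant of the genes called lower. It was at 116 and 193 CPM in the WT RT libraries and at 180 and 143 CPM in the KO RT libraries. In cold it was at 121, 60.5 and 55.3 CPM in WT and at 58.0 and 61.3 CPM in KO. WT cold mouse 1773 lay inside the RT range and the other 4 cold libraries lay below every RT library. The averaged log2 fold change was -1.20 (SE 0.26, adjusted p = 0.0342, edgeR quasi-likelihood). Cxcl10 lies inside Art3 on the opposite strand, and strand use in counting was not given in the sources used here. Art3 had a log2 fold change of -0.13 in the same comparison (adjusted p = 0.776).

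Its interferon-induced relatives had estimates of the same sign without passing the test over all genes. Cxcl9 was at 101 and 64.5 CPM in WT RT, 136 and 106 CPM in KO RT, 72.9, 57.6 and 60.1 CPM in WT cold and 78.2 and 65.9 CPM in KO cold. WT RT mouse 1810 lay among the cold libraries. The averaged estimate was -0.57 (SE 0.15, adjusted p = 0.0683). Cxcl11, the scarcest of the set, had 15 to 54 counts in RT libraries and 8 to 36 in cold ones, with an averaged estimate of -1.16 (SE 0.39, adjusted p = 0.121). Its KO RT libraries, at 0.941 and 0.788 CPM, stood above its KO cold libraries, at 0.175 and 0.159 CPM, and its WT groups overlapped. Cxcl11 also overlaps Art3, which was at 79.7 to 184 CPM on raw library totals. Without strand the reads of that pair cannot be told apart.

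The 250 bases before the start of 5 abundant or called ligands, picked after their values were seen, are shown from RefSeq (GRCm38.p6). The abundant ligands Cxcl9, Cxcl12 and Cxcl14 also had a promoter there and are not shown. Of the 45 members, 31 had one in the table. Capitals mark 2 motifs searched on both strands: GAAANNGAA, a core of the interferon-stimulated response element, and GGGNNNTTC, a core of NF-kB (kappa B) sites. Cxcl10 is on the minus strand at chr5:92348890-92349139, Cxcl1 on the plus strand at chr5:90890995-90891244, Cxcl2 on the plus strand at chr5:90903649-90903898, Ccl9 on the minus strand at chr11:83578637-83578886 and Ccl6 on the minus strand at chr11:83593088-83593337.
Cxcl10: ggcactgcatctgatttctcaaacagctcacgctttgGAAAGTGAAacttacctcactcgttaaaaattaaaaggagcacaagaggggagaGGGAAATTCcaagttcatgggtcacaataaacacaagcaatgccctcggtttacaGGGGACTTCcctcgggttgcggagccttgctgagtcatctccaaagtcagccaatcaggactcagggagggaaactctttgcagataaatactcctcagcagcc
Cxcl1: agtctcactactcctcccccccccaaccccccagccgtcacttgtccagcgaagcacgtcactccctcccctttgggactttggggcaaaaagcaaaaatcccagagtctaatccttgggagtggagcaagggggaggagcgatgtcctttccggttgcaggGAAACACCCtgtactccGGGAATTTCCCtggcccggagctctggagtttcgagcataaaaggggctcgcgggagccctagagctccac
Cxcl2: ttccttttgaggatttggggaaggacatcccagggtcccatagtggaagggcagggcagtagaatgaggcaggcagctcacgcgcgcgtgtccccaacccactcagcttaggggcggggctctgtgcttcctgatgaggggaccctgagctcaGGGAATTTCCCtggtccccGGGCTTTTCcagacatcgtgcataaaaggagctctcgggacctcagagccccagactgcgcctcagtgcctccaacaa
Ccl9: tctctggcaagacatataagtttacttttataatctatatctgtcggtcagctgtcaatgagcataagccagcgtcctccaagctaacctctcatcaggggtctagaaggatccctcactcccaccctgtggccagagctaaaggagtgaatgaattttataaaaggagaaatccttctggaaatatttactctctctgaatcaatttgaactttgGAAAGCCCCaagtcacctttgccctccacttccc
Ccl6: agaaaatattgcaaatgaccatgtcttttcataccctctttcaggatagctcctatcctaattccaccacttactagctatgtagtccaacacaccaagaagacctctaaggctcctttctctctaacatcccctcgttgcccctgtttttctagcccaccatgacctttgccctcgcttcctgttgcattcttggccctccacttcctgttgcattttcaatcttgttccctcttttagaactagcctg

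The Cxcl10 stretch held 1 match to GAAANNGAA, beginning 213 bases before the gene start, and 2 to GGGNNNTTC, at 159 and 104 bases. Cxcl1, Cxcl2 and Cxcl3 each held 3 matches to GGGNNNTTC, of which 2 overlap on opposite strands. The Ccl9 stretch held 1, on its opposite strand and 34 bases before the start, and the Ccl6 stretch held neither motif. Of those not shown, Cxcl9 (cold estimate -0.57) held 1 of each, Cxcl12 (-0.21) held neither and Cxcl14 (0.27) held 1 match to GAAANNGAA. A relation of matches to direction in cold was not tested. GGGNNNTTC was found in 10 of 35 member promoters (28.6%; some genes have several starts) and in 11.8% of all 32851 promoters of the same length. GAAANNGAA was found in 5 of the 35 (14.3%), those of Cxcl9, Cxcl10, Cxcl14, Ccl3 and Ccr2, and in 7.13% of all. A match is a description of the letters and not a bound site.

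Ccl4, a ligand made by macrophages and lymphocytes, was at 12.7 and 22.97 CPM in WT RT and at 12.6 and 12.5 CPM in KO RT. In cold it was at 11.2, 5.499 and 4.32 CPM in WT and at 6.07 and 4.07 CPM in KO. All cold libraries lay below all RT libraries, mouse 1773 only just so. The averaged log2 fold change was -1.33 (SE 0.31, adjusted p = 0.0434). Its neighbour Ccl3, another macrophage ligand, had an estimate of -0.53 and was not called.

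In the second chromosome 11 cluster, the monocyte attractants Ccl2, Ccl7 and Ccl12 had estimates near that of Ccl4 and missed the threshold. The other genes of that cluster, Ccl8 and Ccl11, had averaged estimates of -0.18 and 0.30 and were not called. Ccl2 was at 43.5 and 55.6 CPM in WT RT, 31.2 and 35.5 CPM in KO RT, 33.1, 15.8 and 18.5 CPM in WT cold and 28.1 and 11.8 CPM in KO cold. Only mouse 1773 among the cold libraries reached the RT range. The averaged estimate was -0.94 (SE 0.29, adjusted p = 0.0975). For Ccl7 it was -0.97 (SE 0.30, adjusted p = 0.101), and without KO cold mouse 1781 Ccl7 passed at -1.47 and Ccl2 at -1.32 (adjusted p = 0.0142 and 0.0332). Ccl12, a mouse monocyte attractant, was at 4.94 and 7.04 CPM in WT RT and at 1.04 to 2.61 CPM in all cold libraries, with KO RT at 2.11 and 2.37 CPM inside the cold range. Its averaged estimate was -1.16 (SE 0.30, adjusted p = 0.0593).

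Neutrophil attractants had negative estimates in 4 of 4 tested genes, and 0 were called. Cxcl1 was at 165 and 259 CPM in WT RT, 213 and 182 CPM in KO RT, 181, 96.9 and 116 CPM in WT cold and 105 and 109 CPM in KO cold. Mouse 1773 again lay in the RT range and the other 4 cold libraries below it. The averaged estimate was -0.79 (SE 0.20, adjusted p = 0.0597), and without mouse 1773 it was -0.94 (adjusted p = 0.0301). Cxcl2 ranged from 53.7 to 98.4 CPM in RT and from 32.2 to 69.5 CPM in cold, with an averaged estimate of -0.58 (adjusted p = 0.206). The summed level of 8 neutrophil markers was low in every library, at 5.91 to 12.9 CPM.

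**Figure D3:**
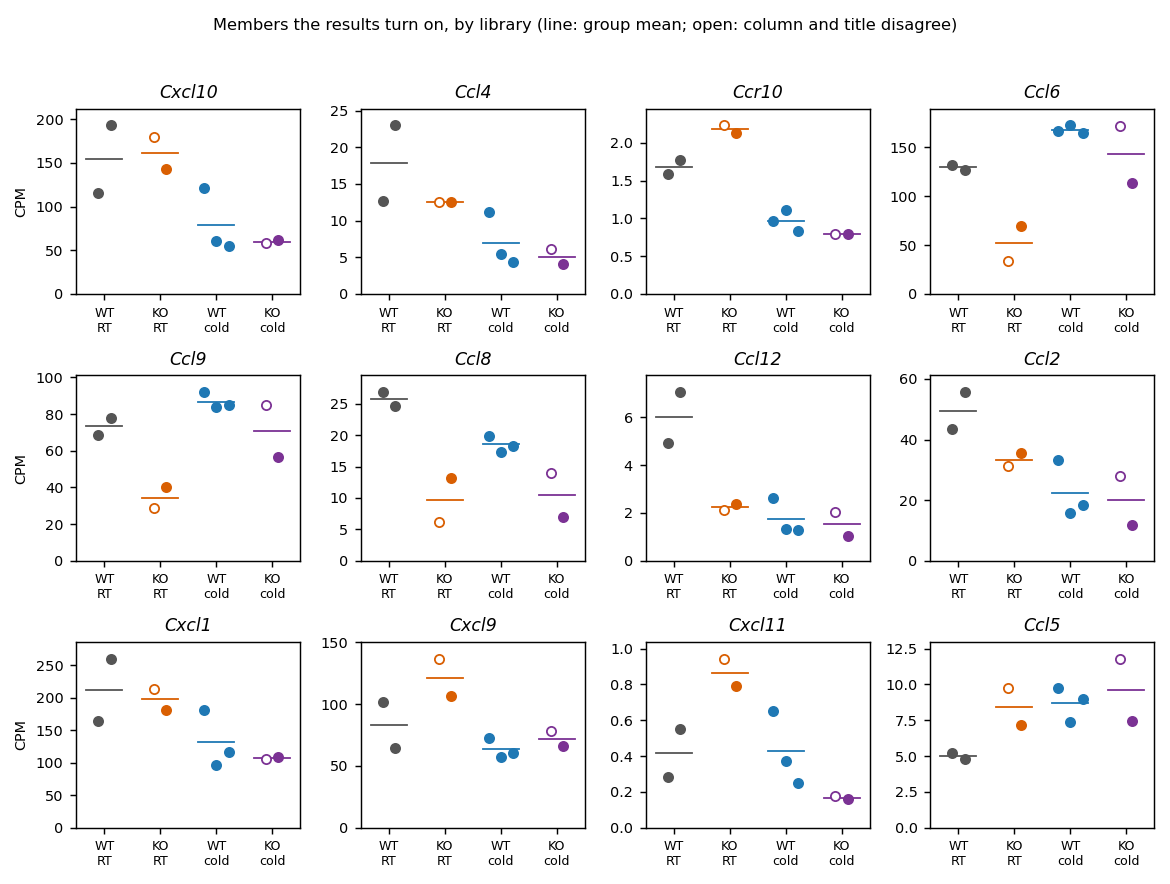
CPM of 12 members in each library, by group, with a line at each group's mean and open points for the 2 KO libraries whose column and title disagree. Cxcl10, Ccl4 and Ccr10 are lower in cold, Ccl6 and Ccl9 are lowest in the KO RT libraries, and WT cold mouse 1773 is the highest WT cold library for Cxcl10, Ccl4, Ccl12, Ccl2 and Cxcl1.

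Ccl6 and Ccl9 were higher in cold with libraries grouped by column name and not with titles followed. They lie between Ccl5 and Ccl3 in the same cluster as Ccl4. Both are rodent CC ligands of Ccr1, made by macrophages and other myeloid cells. Ccl6 (chr11:83587882-83593087 in GRCm38, minus strand) was at 132 and 127 CPM in WT RT and at 33.8 and 69.6 CPM in KO RT. In cold it was at 167, 172 and 165 CPM in WT and at 172 and 113 CPM in KO. The 3 WT cold libraries exceeded every RT library, while KO cold mouse 1782 lay below both WT RT libraries. The averaged log2 fold change was 0.92 (SE 0.21, adjusted p = 0.0415).

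Ccl9 (chr11:83572919-83578636, minus strand) was at 68.6 and 78.03 CPM in WT RT and at 28.8 and 40.2 CPM in KO RT. In cold it was at 91.9, 83.9 and 84.7 CPM in WT and at 84.8 and 56.6 CPM in KO. It showed the same order of libraries as Ccl6 at the bottom, with KO RT mouse 1786 lowest. The averaged log2 fold change was 0.64 (SE 0.14, adjusted p = 0.0393). Within KO, cold against RT was 1.04 for Ccl9 and 1.47 for Ccl6 (adjusted p = 0.0842 and 0.0935). Within WT it was 0.24 for Ccl9 and 0.37 for Ccl6 (adjusted p = 0.640 and 0.622, quasi-likelihood).

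The receptor called lower was Ccr10, which binds Ccl27 and Ccl28. It was at 1.59 and 1.77 CPM in WT RT, 2.23 and 2.13 CPM in KO RT, 0.961, 1.12 and 0.838 CPM in WT cold and 0.798 and 0.797 CPM in KO cold. The RT and cold libraries did not overlap, in 85 to 128 counts against 40 to 57. The averaged log2 fold change was -1.12 (SE 0.19, adjusted p = 0.0170). Ccr10 lies wholly inside Cntnap1, a gene of axon-glia junctions on the opposite strand. Cntnap1 itself, scaled to raw library totals, was at 20.4 to 31.1 CPM in RT and at 10.1 to 13.8 CPM in cold (log2 fold change -1.21, adjusted p = 0.00862). Without strand the reads of the pair cannot be told apart, so the decrease cannot be assigned to Ccr10 rather than Cntnap1.

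The calls in cold rested on few libraries. With each library left out in turn, no called member passed without WT RT mouse 1810 or KO RT mouse 1786. Ccr10 passed without each of the other 7, Cxcl10 passed without WT RT mouse 1788 or WT cold mouse 1773, Ccl4 passed without mouse 1773 alone, and Ccl6 and Ccl9 passed without KO RT mouse 1814 or KO cold mouse 1782. With both mice of conflicting labels left out, KO is mouse 1814 alone at RT and mouse 1782 alone in cold. The averaged estimates were then -1.10 for Cxcl10, -1.49 for Ccl4, -1.10 for Ccr10, 0.37 for Ccl9 and 0.53 for Ccl6. The change of Ccl6 was under 1.5-fold. With titles followed, the averaged estimates were -0.35 for Cxcl10, -0.75 for Ccl4, -0.37 for Ccr10, -0.15 for Ccl9 and -0.17 for Ccl6, and none passed.

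Within each genotype, 0 of 44 members were called for cold, against 0.37% of all genes in WT and 0.334% in KO. At an unadjusted p under 0.05 there were 2 members higher and 8 lower in WT, against 13.2% of all genes in either direction, and 4 higher and 6 lower in KO, against 15.6%. By DESeq2, 3 members were called in WT (Ccl5, Ccl12 and Ccl4), against 3.11% of the genes it adjusted, and 7 in KO, against 3.78%. By edgeR's exact test 2 were called in WT, against 2.59% of all genes, and 5 in KO, against 2.93%. In WT the largest estimate among these was that of Ccl12 at -1.78 (SE 0.39, adjusted p = 0.111), and Ccl4 stood at -1.35, Ccl7 at -1.16 and Ccl2 at -1.14. Ccl5, a T and NK cell product, was at 5.24 and 4.78 CPM in WT RT and at 9.77, 7.36 and 8.95 CPM in WT cold, without overlap, with an estimate of 0.79 (adjusted p = 0.226).

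In KO the estimates were -2.35 for Cxcl11, -1.45 for Ccr10, -1.44 for Cxcl10 and -0.75 for Cxcl9. These comparisons turn on how the 2 conflicting libraries are placed. With both left out, the values were -2.30 for Cxcl11, -1.42 for Ccr10, -1.23 for Cxcl10, -0.70 for Cxcl9, 0.49 for Ccl9 and 0.69 for Ccl6. With titles followed, the sign of all 6 was the opposite, from -0.72 for Ccl6 to 0.27 for Cxcl10.

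**Figure D4:**
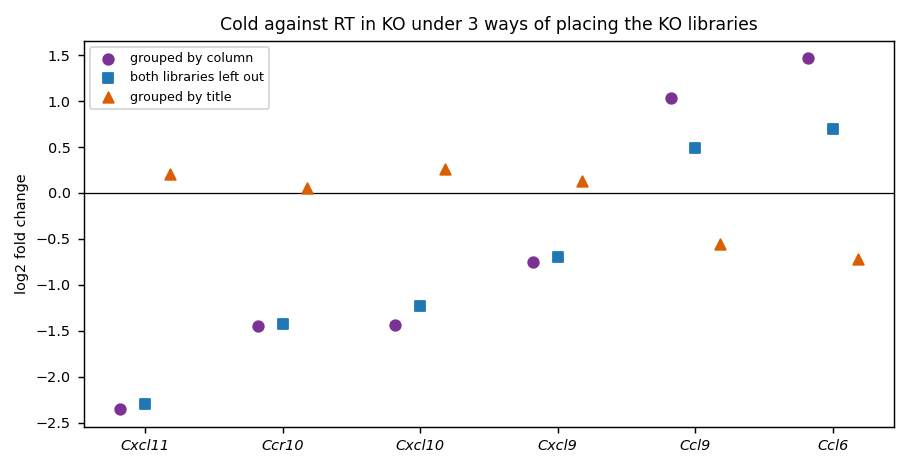
Log2 fold change of cold against RT in KO for the 6 members of lowest p, with KO libraries grouped by column, with both conflicting libraries left out, and grouped by title. The first and second placements share their sign for each gene, and the title placement has the opposite sign, for example -1.44, -1.23 and 0.27 for Cxcl10. The second placement compares KO cold mouse 1782 alone with KO RT mouse 1814 alone.

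KO against WT at RT asked whether loss of Tet1 in fat moved these genes without cold. No member was called (0 of 44, against 0.0358% of all genes). At an unadjusted p under 0.05 there were 2 higher and 7 lower, against 7.4% of all genes. Estimates were negative for 34 of 44 members, with a median of -0.33, while 50.9% of all genes tested were negative with a median of -0.01. Values in KO lay below those in WT without overlap for 13 of 44 members, against 23.1% of all genes. By DESeq2, Ccl6, Ccl8 and Ccl9 were called lower, where 0.761% of the genes it adjusted were called. By edgeR's exact test Ccl6 and Ccl9 were, where 0.567% of all genes were called. These 3 ligands stand in a list the study drew from these same samples, so their direction is not independent evidence.

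Among the 11 CC ligands of monocytes and eosinophils, 10 had negative estimates at RT, with a median of -0.73. Ccl9 was at 28.8 and 40.2 CPM in KO against 68.6 and 78.03 CPM in WT, with an estimate of -1.09 (SE 0.21, adjusted p = 0.358). Ccl6 had an estimate of -1.33 (SE 0.31, adjusted p = 0.454). Ccl8, a ligand of Ccr8 and Ccr2 made by tissue macrophages, was at 6.24 and 13.1 CPM in KO and at 26.8 and 24.7 CPM in WT, or -1.41 (SE 0.37, adjusted p = 0.568). Ccl12 was at 2.11 and 2.37 CPM against 4.94 and 7.04 CPM, or -1.42 (SE 0.44, adjusted p = 0.598). KO RT mouse 1786, whose label is in conflict, was the lower of the pair for all 4 genes. With both mice of conflicting labels left out, the estimates were -0.86 for Ccl9, -0.89 for Ccl6, -0.97 for Ccl8 and -1.33 for Ccl12, and with titles followed -0.23, -0.10, -0.93 and -1.45. Without KO RT mouse 1814 they were -1.35, -1.94, -2.05 and -1.51. None passed in these fits. The exception was Ccl5, at 9.77 and 7.13 CPM in KO and 5.24 and 4.78 CPM in WT, or 0.75 (adjusted p = 0.625). Cxcl12 had an estimate of -0.32 (SE 0.13, adjusted p = 0.654).

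Macrophage markers were low in the same libraries as these ligands. The summed level of 10 macrophage markers was 1019 and 822 CPM in WT RT, 391 and 614 CPM in KO RT, 721 to 899 CPM in WT cold, and 862 and 521 CPM in KO cold, and 9 of 10 had negative KO estimates at RT (median -0.86, 0 called). Percentages of that sum set a member scaled to raw library totals against markers scaled with normalization factors of 0.944 to 1.08. Each percentage therefore carries the factor of its library. On that footing Ccl6 amounted to 13.2% and 15.3% of the sum in WT RT and to 8.81% and 11.01% in KO RT. In cold, by column name, Ccl6 amounted to 19.4 to 22.0% in all 5 libraries, above each RT library. With titles followed this separation was lost, since mouse 1781 (21.6%) becomes an RT library and mouse 1786 (8.81%) a cold one. With both mice left out it remained. By column name, Ccl9 amounted to 6.36 to 9.36% of the sum at RT and to 9.84 to 11.3% in cold, with KO and WT overlapping at RT. With titles followed the RT and cold ranges of Ccl9 overlapped, with mouse 1781 (10.6%) at RT and mouse 1786 (7.51%) in cold. The part of macrophage content in the KO and cold values was not tested.

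**Figure D5:**
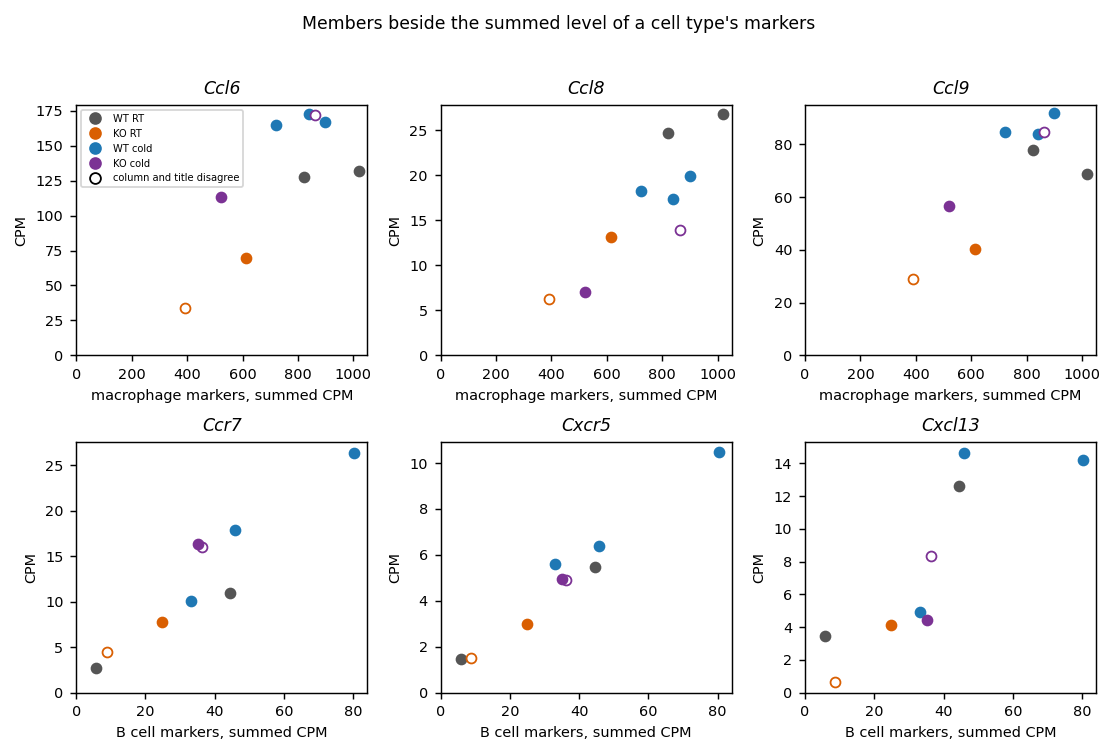
CPM of 6 members against the summed CPM of 10 macrophage markers (Ccl6, Ccl8, Ccl9) or 8 B cell markers (Ccr7, Cxcr5, Cxcl13), 1 point per library. KO RT libraries are low on both axes in the upper row, at 391 and 614 CPM of markers, and Ccr7 and Cxcr5 are lowest and highest in the libraries where B cell markers are lowest (5.74 CPM) and highest (80.3 CPM).

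In cold, KO against WT again gave 0 of 44 members called, against 0.0776% of all genes. At an unadjusted p under 0.05, 0 were higher and 3 lower, against 6.09% of all genes, and 0 were called by DESeq2 or the exact test. Ccl8 was at 13.9 and 7.02 CPM in KO and at 19.9, 17.3 and 18.3 CPM in WT, without overlap, or -0.82 (SE 0.34, adjusted p = 0.806). Ccl8 amounted to 1.27 and 1.74% of the macrophage sum in KO cold and to 2.03 to 2.44% in WT cold. Here too the member is scaled to raw library totals and the markers with normalization factors. With the conflicting mice left out the Ccl8 estimate was -1.41, with mouse 1782 as the only KO cold library. With titles followed it was -1.48 (adjusted p = 0.0182), where 16 of all genes were called lower. Cxcl15, an epithelial ELR ligand, had an estimate of -1.06 and Cxcl11 of -1.34 (adjusted p = 0.806 for both), and with titles followed the latter was 0.37.

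Averaged over RT and cold, KO against WT gave 0 of 44 members called, against 0.125% of all genes. At an unadjusted p under 0.05 there were 2 higher and 6 lower, against 11.6% of all genes. Ccl8 had -1.12 (SE 0.25, adjusted p = 0.234), Ccl9 -0.69 (SE 0.14, adjusted p = 0.194) and Ccl6 -0.78 (SE 0.21, adjusted p = 0.281). These 3 were called lower by DESeq2, which called 1.34% of genes. With both conflicting mice left out the estimates were -1.19, -0.74 and -0.73. There KO is mouse 1814 alone at RT and mouse 1782 alone in cold. With titles followed, Ccl8 was called lower at -1.21 (adjusted p = 0.00221), while Ccl9 and Ccl6 stood at -0.63 and -0.65 and were not called. Cxcl12, Cxcl15 and Ccl12 had -0.29, -0.87 and -0.80 by the quasi-likelihood test (adjusted p = 0.304, 0.375 and 0.375). The exact test was not run on averaged comparisons.

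The difference between the KO effects in cold and at RT passed the test for 0 of 44 members and for 0% of all genes. DESeq2 gave none either. At an unadjusted p under 0.05 there were 2 higher and 1 lower, against 2.74% of all genes. They were Ccl9 at 0.79 (SE 0.28), Ccl6 at 1.09 (SE 0.41) and Cxcl11 at -2.40 (SE 0.78), each with an adjusted p of 1.00. Ccl6 and Ccl9 are thus given different KO estimates at RT and in cold without the difference being resolved, and with titles followed the sign of all 3 was the opposite.

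A pair of lymphocyte receptors and 1 ligand, chosen after their values were seen, are given beside B cell and T cell markers, and 0 of these 3 were called. Ccr7, the receptor that takes T cells and dendritic cells to lymph nodes, was at 10.9 and 2.73 CPM in WT RT, 4.44 and 7.73 CPM in KO RT, 17.9, 26.4 and 10.01 CPM in WT cold and 16.02 and 16.3 CPM in KO cold. Its averaged cold estimate was 1.41 (SE 0.42, adjusted p = 0.0940), and the groups overlapped through WT RT mouse 1788. Without that mouse it passed at 2.07 (adjusted p = 0.0406). Cxcr5, the B cell follicle receptor, was at 5.49 and 1.48 CPM in WT RT, 1.498 and 2.996 CPM in KO RT and 4.91 to 10.5 CPM in cold. Its estimate was 1.12 (SE 0.40, adjusted p = 0.140). The annotated span of Cxcr5 overlaps that of Bcl9l, another counted gene, and the reads of the pair were not separated here. Cxcl13, the ligand of Cxcr5, was at 12.6 and 3.46 CPM in WT RT and at 0.662 and 4.14 CPM in KO RT. In cold it was at 14.6, 14.2 and 4.94 CPM in WT and at 8.33 and 4.43 CPM in KO, with an estimate of 0.95 (adjusted p = 0.379).

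B cell markers varied in the same libraries. Their sum over 8 genes was 44.5 and 5.74 CPM in WT RT, 8.76 and 24.9 CPM in KO RT, 45.8, 80.3 and 33.1 CPM in WT cold and 36.3 and 35.1 CPM in KO cold. Cxcr5 amounted to 11.7 to 17.4% of that sum in 8 libraries and to 25.3% in WT RT mouse 1810, where the sum was lowest. Ccr7 amounted to 25.01 to 51.7% and Cxcl13 to 7.70 to 59.4%. These percentages also set members scaled to raw library totals against marker sums scaled with normalization factors. T cell markers, also 8 genes, summed to 9.72 to 24.0 CPM at RT and to 18.2 to 41.2 CPM in cold. In the averaged cold comparison 8 of 8 T cell markers had positive estimates (median 0.86, 0 called). So did 8 of 8 B cell markers (median 1.07, 0 called) and 3 of 6 dendritic cell markers (median -0.04, 0 called). Ccr7 was not set against the T cell sum. Markers of lymph node stroma and high endothelial venules summed to 2.50 to 10.4 CPM. The part of lymphoid cells in these estimates was not tested.

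Genes that act beside chemokines were read from lists. Of 4 chemokine system genes outside the name rule (Pf4, Ppbp, Xcl1 and Xcr1), 5 atypical receptors that scavenge ligands and 8 peptidases and binding proteins, 0 were called in either averaged comparison. In cold 1.55% of all genes were called lower and 49.5% had a negative estimate. Of 11 tested genes of receptor signalling, 2 were called lower in cold. Rgs2, a G protein regulator, had -1.12 (SE 0.12, adjusted p = 0.00583) and Grk3, a receptor kinase, had -0.67 (SE 0.13, adjusted p = 0.0297). An effect of either on chemokine receptor signals was not tested. Of 11 NF-kB targets and feedback genes, 10 had negative cold estimates (median -0.49) and 2 were called lower, the subunit genes Relb at -0.72 (SE 0.11, adjusted p = 0.0118) and Nfkb2 at -0.71 (SE 0.12, adjusted p = 0.0184). Of 10 interferon targets, 10 had negative cold estimates (median -0.42) and 0 were called, with Ifit1 lowest in p at -0.83 (adjusted p = 0.0510).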

How the data were processed

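RNA from inguinal fat of 9 mice was sequenced on a BGISEQ instrument. The authors aligned reads to mm10 with STAR, keeping uniquely mapped reads, removed mitochondrial reads and counted genes with featureCounts. The deposited table holds raw counts and RPKM values computed by the authors. The RPKM columns of the 2 mice with conflicting labels were not used. Strand and pair settings were not given in the sources used here; among values over 0, 56.9 to 59.7% of counts are even, so counting errors at low counts may be understated. Counts were tested with edgeR 4.0.16 in R 4.3.3 (TMM, filterByExpr, robust quasi-likelihood fit of 4 groups); DESeq2 1.42.0 and edgeR's exact test were alternatives. On simulated counts of 16535 genes, 200 of them changed 4-fold by cold, edgeR called 199 of the 200 and 7 others in the averaged cold comparison. The 200 were drawn from better-counted genes alone. The simulation therefore does not show how often smaller changes, or changes of scarce members such as Ccr10, would be called. The 3 WT cold libraries and 2 of each other group are separate mice. Positions come from GENCODE vM21. Besides the receptor left out by the rule, 1 receptor is counted among the members and not reported here. Members, lists and motifs were chosen with earlier results of these data known.

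Values in full were planned for members called in any comparison and up to 6 members of lowest unadjusted p under 0.05 in each. The 6 of highest mean RPKM, and Ccl6, Ccl8, Ccl9 and Cxcl10, were included too. For listed genes the plan was up to 3 of lowest p. Of the planned members, Ccl7, Ccl11, Cxcl2, Cxcl11, Cxcl12, Cxcl14 and Cxcl15 are given in part. Others were named after their values were seen.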

Additional observations from a re-analysis of the deposited data

How the results depend on the processing

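Of 702 recomputed fold changes over 44 results, 689 kept their direction, and the other 13 all came from following titles in place of column names. The 44 were chosen for a call or a low p in these same data, or because the text gives them. The refits reuse the same counts, so a kept direction was likely in advance and is no separate evidence. For cold averaged over genotypes, where 2 members were called higher and 3 lower, DESeq2 called 4 and 7 and titles 0 and 0. A fit with no normalization factor called 0 and 1. Most fits with 1 library left out leave 1 library in a group. Leaving out both mice of conflicting labels does so in KO. Calls in those fits are not counted here. Over all genes, cold averaged over genotypes held 268 calls higher and 259 lower, with DESeq2 440 and 464, and with titles 0 and 1. Over all genes DESeq2 also called more than the quasi-likelihood test elsewhere, for example 122 against 6 in KO against WT at RT, and the exact test called 95 there. Other comparisons had 0 members called. There, at RT, DESeq2 called 3 lower in KO and the exact test 2. In cold, titles gave 1 lower in KO, where 16 of all genes were called lower. For cold in WT, DESeq2 called 1 higher and 2 lower, and the exact test 2 lower. For cold in KO, DESeq2 called 2 higher and 5 lower, and the exact test 2 and 3. For KO averaged over temperatures, DESeq2 called 3 lower and titles 1, the latter without a share over all genes given here. With titles, the reversed estimates were 0.37 for Cxcl11 in KO against WT in cold; 0.053 for Ccr10, -0.55 for Ccl9, -0.72 for Ccl6, 0.20 for Cxcl11, 0.27 for Cxcl10 and 0.13 for Cxcl9 in cold within KO; 0.16 for Cxcl11, -0.79 for Ccl9 and -1.09 for Ccl6 in the difference of KO effects; and -0.15 for Ccl9, -0.17 for Ccl6 and 0.12 for Cxcl11 in cold averaged. The cause of these differences was not tested. Of the 6 genes of highest RPKM, 4 were also among the 6 of highest CPM.

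No paired analysis was possible because the groups share no mouse numbers. The exact test was not run on averaged comparisons or on the difference of KO effects. With 2 or 3 mice a group, the data limit which members can pass. Where 1 library was left out of a group of 2, the remaining library is assumed to vary like the other groups. The same holds for both KO groups where the 2 mice of conflicting labels were left out. Scarce members such as Cxcl11 rest on few counts.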
